A study of Homo sapiens with 10 samples.

Results

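The 43 genes described here encode proteins of photoreceptors, the light-sensing rod and cone cells of the retina, and were taken by gene symbol from the long RNA count tables of 5 libraries, which hold 55771 distinct symbols. The list was chosen on measured values, since these genes stood higher with the empty vector than with TAF1C in the same libraries, so their levels in the 2 groups are given as a description, with no test. All 43 symbols were found. By their labels, the libraries came from BEAS-2B, a human line of immortalised bronchial epithelial cells grown in LHC9 medium with 10% FBS. The identity of the cells was not tested. The cells had been made into stable lines, kept under G418, that carried either an empty vector (2 libraries, empty vector 1 and empty vector 2) or a TAF1C vector driven by the pCMV6 promoter (3 libraries). TAF1C belongs to SL1, a complex that brings RNA polymerase I to ribosomal RNA genes, and small RNA had been sequenced from the same 5 RNA samples. The labels do not say whether a line is a clone or whether replicates were separate cultures, so every p measures the spread between these samples, which may be technical.

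Rods and cones turn light into an electrical signal through a G protein cascade: an opsin activates transducin, transducin activates the phosphodiesterase PDE6, and the fall in cyclic GMP closes a cyclic nucleotide gated channel. The cascade sits in stacked membranes of the outer segment, a modified cilium, and calcium sensors with guanylate cyclase reset it. The homeodomain factors OTX2 and CRX set up this programme in the retina, NRL and NR2E3 direct the rod fate, and THRB and RXRG belong to cones. Some of the 43, such as PRDM1, THRB and CDH23, also act in other tissues, and none is a marker of bronchial epithelium.

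The long RNA libraries held between 22809601 and 37533366 gene counts. Empty vector 1 had the lowest total but counts for the most genes, 45285, against 36669 in empty vector 2 and 40514 to 41791 in the others. The pair of empty vector libraries differed from each other by an SD of 0.87 on the log2(CPM + 1) scale over tested genes, and pairs of libraries labelled TAF1C by 0.20 to 0.23. TAF1C mRNA itself stood at 64.4 and 77.7 CPM (gene counts scaled to a common library size by TMM) with the empty vector and at 64.0, 59.0 and 67.0 CPM where TAF1C is the label. It was thus not higher in the latter, so they are called by their label throughout (edgeR, log2 change -0.17 ± 0.13 SE, adjusted p = 0.353). These are bulk samples, in which fewer cells of a type and less RNA per cell cannot be told apart.

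To show the regulatory sequence near these genes, the 250 bases before the RefSeq start site (GRCh38.p14) were searched on both strands for TAATCC, the core letters bound by CRX and OTX2 homeodomains. A window was found for 30 of the 43 genes, 40 windows in all with alternative starts. The letters occurred in 9 of the 40 windows (22.5%), each of a different gene, and in 5.62% of all 35116 windows of that length. The 5 sequences printed here, 5′ to 3′ on the gene's strand, were picked to hold one factor, one shared calcium sensor gene, a cone opsin, a rod arrestin and a cone phosphodiesterase. Capitals mark TAATCC or its reverse complement.
CRX, chr19:47821687-47821936, plus strand: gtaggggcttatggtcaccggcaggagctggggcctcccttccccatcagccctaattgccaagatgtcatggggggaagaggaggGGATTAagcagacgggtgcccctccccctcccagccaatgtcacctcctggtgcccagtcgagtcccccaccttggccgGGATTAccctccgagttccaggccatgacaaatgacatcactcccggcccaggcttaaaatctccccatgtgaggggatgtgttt
GUCA1A, chr6:42173114-42173363, plus strand: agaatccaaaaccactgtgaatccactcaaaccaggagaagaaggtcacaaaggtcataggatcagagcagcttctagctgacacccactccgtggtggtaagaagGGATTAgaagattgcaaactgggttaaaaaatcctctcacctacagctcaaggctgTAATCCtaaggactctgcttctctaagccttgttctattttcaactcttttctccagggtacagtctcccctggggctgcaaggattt
OPN1SW, chr7:128775795-128776044, minus strand: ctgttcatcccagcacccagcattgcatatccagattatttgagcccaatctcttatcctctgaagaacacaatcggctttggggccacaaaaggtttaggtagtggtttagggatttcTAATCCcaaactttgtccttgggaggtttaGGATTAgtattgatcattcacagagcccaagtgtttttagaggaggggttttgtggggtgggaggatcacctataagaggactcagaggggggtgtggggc
SAG, chr2:233307566-233307815, plus strand: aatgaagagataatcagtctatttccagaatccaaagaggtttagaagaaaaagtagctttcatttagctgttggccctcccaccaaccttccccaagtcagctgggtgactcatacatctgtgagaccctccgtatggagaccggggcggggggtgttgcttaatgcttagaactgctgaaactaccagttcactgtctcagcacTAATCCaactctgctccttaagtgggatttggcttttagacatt
PDE6C, chr10:93612287-93612536, plus strand: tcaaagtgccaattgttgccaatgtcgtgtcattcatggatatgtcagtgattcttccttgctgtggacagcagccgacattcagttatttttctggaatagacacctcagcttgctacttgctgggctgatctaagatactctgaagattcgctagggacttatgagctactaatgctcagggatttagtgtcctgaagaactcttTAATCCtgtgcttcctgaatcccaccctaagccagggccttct

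In SAG and PDE6C the letters began 44 and 43 bases before the start site, and CNGB1 had them at 44 bases as well. CRX, GUCA1A and OPN1SW each had a pair of matches, which began at 164 and 85, 144 and 88, and 131 and 101 bases before the start. The other genes with a match were EYS, PCDH15 and PDE6A. TGCTGA, part of the site of the MAF family to which NRL belongs, was in 10 of the 40 windows (25.0%) and in 14.0% of all windows, and CNGB1, PCDH15 and SAG had both motifs. A match of letters is a description of the sequence and not a bound site.

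All 43 genes were higher in empty vector 1 than in each of the 3 libraries labelled TAF1C, but only 34 of them were higher in empty vector 2 as well. Among all 18402 tested genes, 49.7% had empty vector 1 above the 3 libraries labelled TAF1C, 44.0% had empty vector 2 above them and 34.4% had both above them. The genes were chosen on this contrast, so nothing is read from the comparison with those shares. Their summed level was 6216 CPM in empty vector 1 and 3006 CPM in empty vector 2, against 81.2, 66.4 and 77.5 CPM in libraries labelled TAF1C, which makes 0.733% and 0.297% of all gene counts against 0.00619% to 0.00759%. Per gene, empty vector 1 lay a median of 53.1-fold and empty vector 2 a median of 4.48-fold above the mean of the libraries labelled TAF1C. Of the 43 genes, 38 passed the filter on low counts. PDE6C, CNGB3, PCDH15, RDH12 and IMPG1 did not, since no more than 1 library reached 1 CPM of them before TMM scaling.

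**Figure D1:**
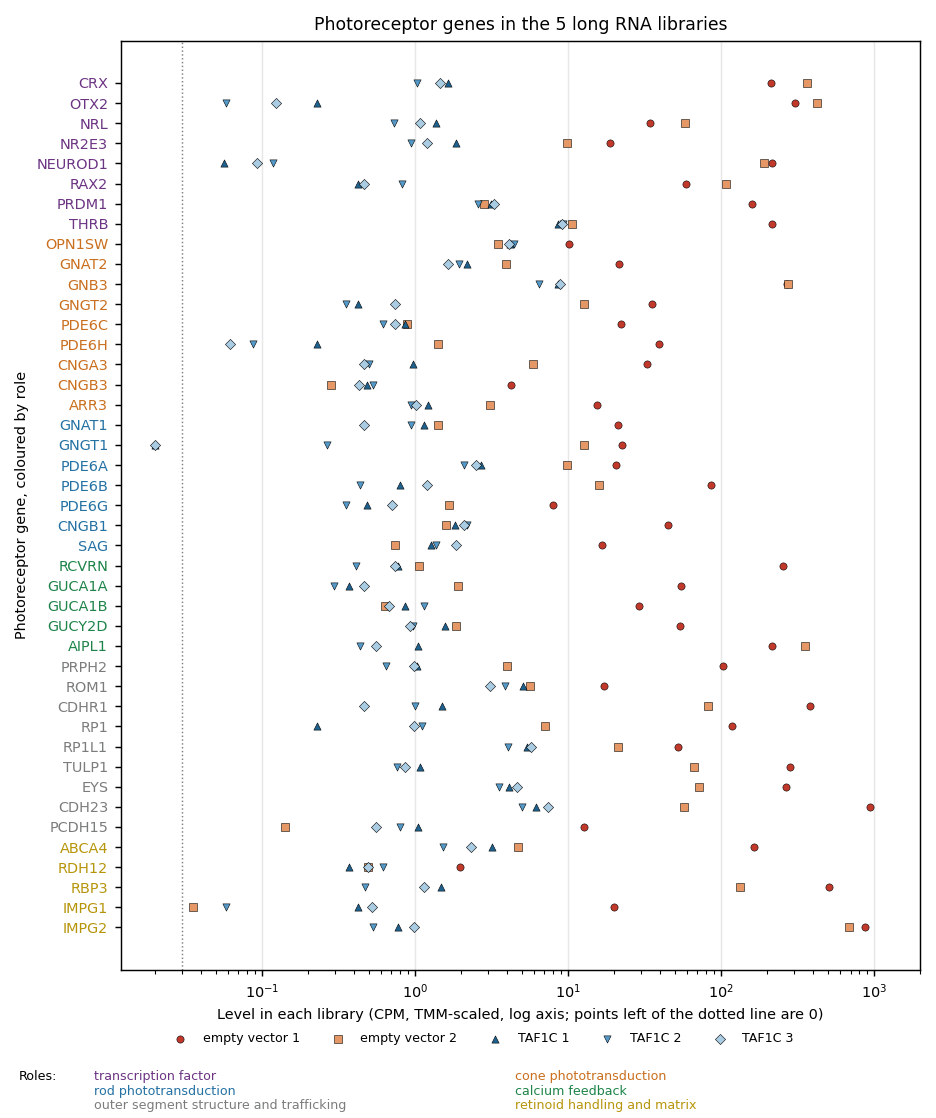
Level of each of the 43 photoreceptor genes (CPM, log axis) in the 5 long RNA libraries, one point per library, with gene names coloured by role. Every empty vector 1 point lies to the right of the 3 points of the libraries labelled TAF1C, while the empty vector 2 point does so for 34 genes and ranges from 0.0355 CPM (IMPG1) to 680 CPM (IMPG2).

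Most of the transcription factors lay within 2-fold of each other in the empty vector libraries and far above the rest. CRX, the homeodomain factor that activates photoreceptor genes, stood at 212 and 362 CPM in empty vector 1 and 2, against 1.65, 1.03 and 1.45 CPM in libraries labelled TAF1C. OTX2, which acts upstream of CRX, stood at 303 and 425 CPM, against 0.228, 0.0588 and 0.124 CPM. NEUROD1, a basic helix-loop-helix factor of photoreceptor and other neuronal differentiation, stood at 216 and 190 CPM, against 0.0570, 0.118 and 0.0928 CPM. In these 3 genes the groups lay far apart, and empty vector 1 had 0.584, 0.712 and 1.14 times the level of empty vector 2. RAX2, a retinal homeodomain factor, stood at 58.8 and 107 CPM, against 0.428, 0.824 and 0.464 CPM. Its ratio of empty vector 1 to empty vector 2, 0.548 (95% exact binomial interval 0.516 to 0.583), was the lowest of the 43. These intervals cover counting error only, since each side is 1 library.

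The factors of rod and cone fate were less alike. NRL, the leucine zipper factor of the rod fate, stood at 34.0 and 58.1 CPM with the empty vector and at 1.37, 0.735 and 1.08 CPM in libraries labelled TAF1C. NR2E3, a nuclear receptor that represses cone genes in rods, stood at 18.7 and 9.92 CPM, against 1.85, 0.941 and 1.21 CPM. Both were high in each empty vector library, NRL more so in empty vector 2 and NR2E3 in empty vector 1. THRB, the thyroid hormone receptor of cone opsin choice, stood at 214 CPM in empty vector 1, 10.6 CPM in empty vector 2 and 8.55, 9.32 and 9.15 CPM in libraries labelled TAF1C. PRDM1, which in the retina favours photoreceptors over bipolar cells, stood at 160 CPM in empty vector 1 and 2.81 CPM in empty vector 2, against 3.14, 2.59 and 3.31 CPM. For PRDM1 only empty vector 1 stood apart, and for THRB empty vector 2 was 1.17-fold above the mean of the libraries labelled TAF1C. Of the 8 factors, 6 had an empty vector 1 to 2 ratio below 2, with a median of 0.924 over the 8. The summed level of the 8 was 1215 and 1166 CPM, against 15.6 to 17.3 CPM. These sums were close because THRB and PRDM1, far higher in empty vector 1, offset CRX, OTX2, NRL and RAX2, which were higher in empty vector 2.

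**Figure D2:**
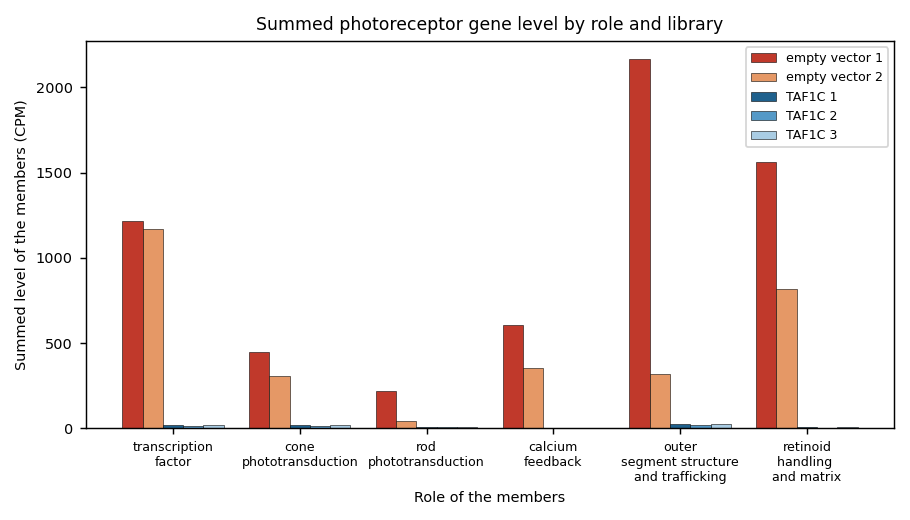
Summed level (CPM, linear axis from 0) of the photoreceptor genes of each role in each of the 5 long RNA libraries, one bar per library with no error bar. The transcription factor bars of empty vector 1 and 2 are nearly level at 1215 and 1166 CPM. This holds for the sums only, since THRB and PRDM1 were far higher in empty vector 1. CRX, OTX2, NRL and RAX2 were higher in empty vector 2. The bars of outer segment structure and trafficking stand at 2164 and 316 CPM, of which CDH23 alone gave 933 and 56.9 CPM.

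Phototransduction genes of cones reached lower levels in empty vector 2 than in empty vector 1, with GNB3 as the exception. OPN1SW, the short-wave (blue) cone opsin, stood at 10.2 CPM in empty vector 1 and 3.48 CPM in empty vector 2, against 4.19, 4.41 and 4.14 CPM in libraries labelled TAF1C. GNAT2, the cone transducin alpha subunit, stood at 21.6 and 3.95 CPM, against 2.2, 1.94 and 1.64 CPM. GNB3, the cone transducin beta subunit, stood at 268 and 275 CPM, against 8.61, 6.44 and 8.87 CPM. OPN1SW in empty vector 2 was thus below all libraries labelled TAF1C, GNAT2 was modestly above them, and GNB3 was about as high as in empty vector 1 (ratio 0.976, interval 0.945 to 1.01). GNGT2, the cone gamma subunit, stood at 35.2 and 12.8 CPM, against 0.428, 0.353 and 0.742 CPM, with both empty vector libraries clear of the rest.

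The cone phosphodiesterase and channel genes differed more strongly between the empty vector libraries. PDE6C, the catalytic subunit, stood at 22.3 and 0.889 CPM, against 0.855, 0.618 and 0.742 CPM in libraries labelled TAF1C. PDE6H, the inhibitory subunit, stood at 39.0 and 1.42 CPM, against 0.228, 0.0882 and 0.0618 CPM. PDE6C in empty vector 2 was barely above the libraries labelled TAF1C, while PDE6H was 11.3-fold above their mean. CNGA3, the channel's alpha subunit, stood at 32.7 and 5.86 CPM, against 0.969, 0.500 and 0.464 CPM. CNGB3, its beta subunit, stood at 4.24 and 0.284 CPM, against 0.485, 0.529 and 0.433 CPM, so that empty vector 2 was the lowest library. ARR3, the cone arrestin that shuts the opsin off, stood at 15.6 and 3.09 CPM, against 1.23, 0.941 and 1.02 CPM, with both empty vector libraries above the rest. Over the 9 cone genes the median empty vector 1 to 2 ratio was 5.48, and 7 of them were above all libraries labelled TAF1C in empty vector 2.

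Rod phototransduction genes had a similar median ratio, 5.41, and 5 of 7 were above all libraries labelled TAF1C in empty vector 2. GNAT1, the rod transducin alpha subunit, stood at 21.1 and 1.42 CPM, against 1.14, 0.941 and 0.464 CPM. GNGT1, the rod gamma subunit, stood at 22.6 and 12.6 CPM, against 0, 0.265 and 0 CPM, from 607 and 355 counts against 0, 9 and 0. GNAT1 in empty vector 2 was close to the libraries labelled TAF1C, whereas GNGT1 was high in both empty vector libraries. PDE6A and PDE6B, the catalytic subunits of rod phosphodiesterase, both stood apart from the libraries labelled TAF1C in each empty vector library. PDE6A had 20.6 and 9.85 CPM, against 2.71, 2.09 and 2.50 CPM. PDE6B had 86.2 and 15.9 CPM, against 0.798, 0.441 and 1.21 CPM. PDE6G, the inhibitory subunit, stood at 7.99 and 1.67 CPM, against 0.485, 0.353 and 0.711 CPM, again without overlap.

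The remaining rod genes were high in empty vector 1 alone. CNGB1, the channel's beta subunit, stood at 44.8 CPM there and 1.60 CPM in empty vector 2, against 1.82, 2.18 and 2.10 CPM. SAG, the rod arrestin, stood at 16.8 and 0.746 CPM, against 1.28, 1.38 and 1.86 CPM. In both genes empty vector 2 was the lowest of the 5 libraries.

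Count ratios of rod and cone paralogs did not shift in 1 direction between the empty vector libraries. Several of these ratios rest on genes near the level of the libraries labelled TAF1C. Since different genes' counts depend on transcript length, each pair was compared only as its rod to cone count ratio in empty vector 1 over that in empty vector 2, with a 95% interval from a normal approximation on the log scale. The ratio was above 1 for GNAT1 to GNAT2 at 2.71 (1.86 to 3.97) and for SAG to ARR3 at 4.46 (2.72 to 7.31). It was below 1 for GNGT1 to GNGT2 at 0.649 (0.543 to 0.776), for PDE6A to PDE6C at 0.0835 (0.0546 to 0.128), for PDE6B to PDE6C at 0.216 (0.143 to 0.326) and for PDE6G to PDE6H at 0.174 (0.112 to 0.273). For CNGB1 to CNGB3 the interval, 0.865 to 4.09, included 1. Of 7 pairs, 2 therefore leaned to the rod gene in empty vector 1, 4 to the cone gene, and 1 did not differ beyond counting error. The pairs are not independent, since 2 of the 4 share PDE6C. That gene had 25 counts in empty vector 2, at 0.889 CPM against 0.618 to 0.855 CPM in libraries labelled TAF1C. In the pairs that leaned to the rod gene, SAG had 21 counts there, at 0.746 CPM against 1.28 to 1.86 CPM. GNAT1 stood at 1.42 CPM against 0.464 to 1.14 CPM. CNGB1 and CNGB3 were both below all libraries labelled TAF1C. Ratios with these genes thus compare a level in empty vector 1 with one near that of the libraries labelled TAF1C. The other pairs, GNGT1 to GNGT2 and PDE6G to PDE6H, both leaned to the cone gene. With NRL and NR2E3 counted as rod genes and THRB as a cone gene, the median empty vector 1 to 2 ratio was 4.78 over 9 rod genes and 5.53 over 10 cone genes.

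The role of calcium feedback held 4 calcium sensor and cyclase genes, and AIPL1, a PDE6 chaperone that was grouped with them. Its 5 genes had a median empty vector 1 to 2 ratio of 29.3, the highest of the 6 roles, with AIPL1 as the exception. RCVRN, the calcium sensor recoverin, stood at 255 CPM in empty vector 1 and 1.07 CPM in empty vector 2, against 0.770, 0.412 and 0.742 CPM in libraries labelled TAF1C. GUCY2D, the retinal guanylate cyclase, stood at 54.2 and 1.85 CPM, against 1.57, 0.971 and 0.928 CPM. GUCA1A, an activator of that cyclase whose window is printed above, stood at 54.3 and 1.92 CPM, against 0.371, 0.294 and 0.464 CPM. In all 3 genes empty vector 2 was above the libraries labelled TAF1C by 1.66-fold, 1.60-fold and 5.10-fold of their mean. GUCA1B, the second activator, stood at 28.9 and 0.640 CPM, against 0.855, 1.15 and 0.680 CPM, and so was lowest in empty vector 2. AIPL1, the chaperone that PDE6 needs to fold, stood at 213 and 350 CPM, against 1.06, 0.441 and 0.557 CPM. Unlike the other 4 it was higher in empty vector 2, with an empty vector 1 to 2 ratio of 0.609 (0.590 to 0.629), beside 239 (167 to 354) for RCVRN.

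Genes grouped as outer segment structure and trafficking made up 34.8% of the 43 genes' counts in empty vector 1 and 10.5% in empty vector 2. CDH23 alone made up 15.0% and 1.89%. Such shares of reads also depend on transcript length. PRPH2, the peripherin of disc rims, stood at 104 and 3.98 CPM, against 1.03, 0.647 and 0.990 CPM in libraries labelled TAF1C. ROM1, its partner, stood at 17.1 and 5.65 CPM, against 5.05, 3.88 and 3.09 CPM. CDHR1, a cadherin at the outer segment base, stood at 381 and 82.3 CPM, against 1.51, 1.0 and 0.464 CPM. No group overlapped in these 3, though ROM1 in empty vector 2 was only 1.41-fold above the mean of the libraries labelled TAF1C.

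RP1 and RP1L1, microtubule proteins of the outer segment axoneme, stood apart in both empty vector libraries. RP1 had 117 and 7.04 CPM, against 0.228, 1.12 and 0.990 CPM, and RP1L1 had 52.4 and 21.2 CPM, against 5.42, 4.06 and 5.72 CPM. TULP1, a tubby-like trafficking protein, stood at 282 and 66.9 CPM, against 1.08, 0.765 and 0.866 CPM. EYS, an extracellular matrix protein of photoreceptors, stood at 265 and 72.0 CPM, against 4.11, 3.56 and 4.67 CPM. Both TULP1 and EYS were several times higher in empty vector 1 but also clear of the rest in empty vector 2. CDH23, a cadherin of hair cell tip links that retina also expresses, stood at 933 and 56.9 CPM, against 6.22, 5.03 and 7.42 CPM. PCDH15, its tip link partner, stood at 12.7 and 0.142 CPM, against 1.06, 0.794 and 0.557 CPM. The pair thus parted in empty vector 2, where CDH23 was 9.14-fold above the mean of the libraries labelled TAF1C and PCDH15, with 4 counts, below all 3.

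Of the genes of retinoid handling and matrix, IMPG2 and RBP3 were high in both empty vector libraries. IMPG2, a proteoglycan of the matrix around photoreceptors, stood at 869 and 680 CPM, against 0.770, 0.529 and 0.990 CPM. RBP3, the retinoid carrier of that matrix, stood at 508 and 133 CPM, against 1.48, 0.471 and 1.14 CPM. ABCA4, the retinoid transporter of disc membranes, stood at 163 and 4.73 CPM, against 3.17, 1.53 and 2.32 CPM, so that empty vector 2 was 2.02-fold above the mean of the rest. IMPG1, a second matrix proteoglycan, stood at 20.03 CPM in empty vector 1 and, from 1 count, 0.0355 CPM in empty vector 2, against 0.428, 0.0588 and 0.526 CPM. The related IMPG1 and IMPG2 therefore had ratios of 564 (101 to 22302) and 1.28 (1.25 to 1.30) between the empty vector libraries. RDH12, a retinol dehydrogenase, was the only gene under 100 counts in each empty vector library, at 1.97 and 0.498 CPM, against 0.371, 0.618 and 0.495 CPM.

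Across the 43 genes the empty vector 1 to 2 ratio had a median of 5.04 and ran from 0.548 for RAX2 to 564 for IMPG1. It was at least 4 for 25 genes. Among the 38 photoreceptor genes that passed the filter it was at least 4 for 21, beside 7.28% of all tested genes, whose median ratio was 1.01. Among tested genes with a mean below 5 CPM in the libraries labelled TAF1C, 16.6% reached a ratio of 4 and the median was 1.62, beside 19 of the 34 tested photoreceptor genes at that level. Empty vector 2 was higher than empty vector 1 for 6 of the 43 (CRX, OTX2, NRL, RAX2, AIPL1 and GNB3) and for 48.9% of all tested genes. Counting error alone covered the difference only for GNB3. The choice of the genes drew on both empty vector libraries, and with 1 library on each side there is no replicate check. That empty vector 1 counts more genes at a lower depth moves with these ratios, and its part in them was not tested.

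**Figure D3:**
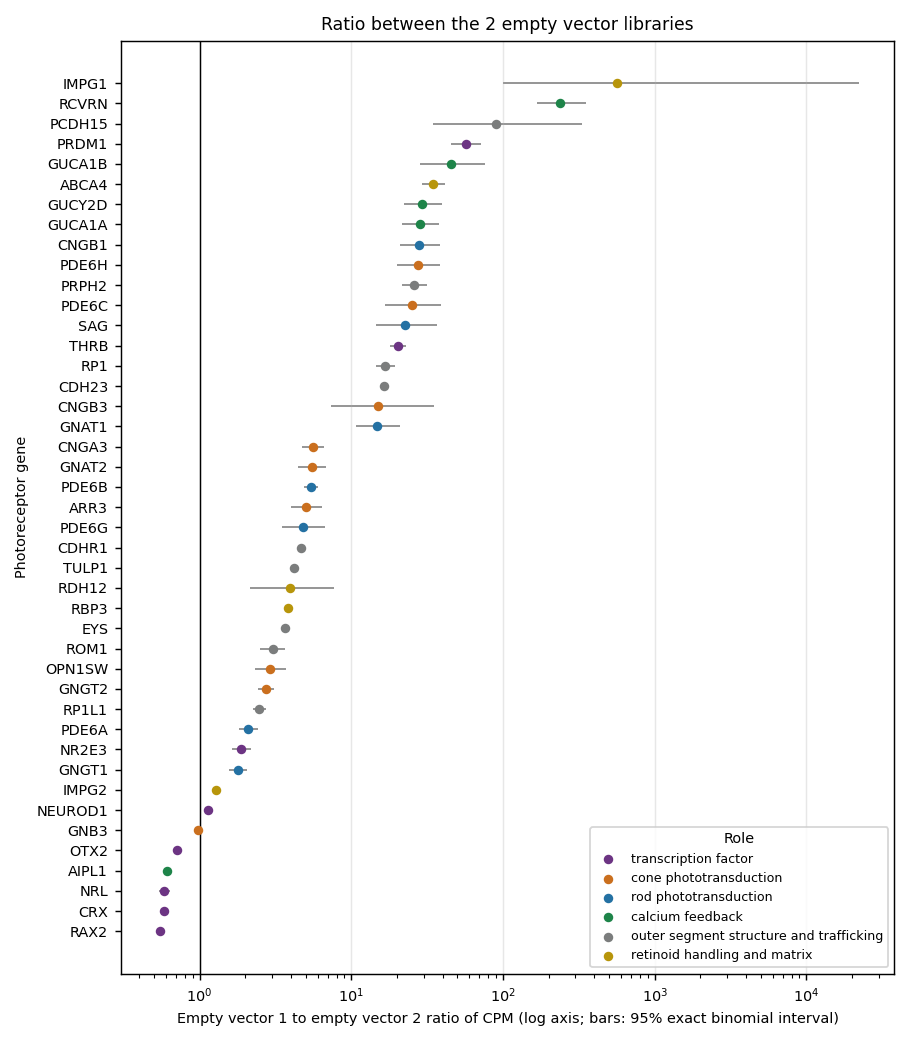
Ratio of the level in empty vector 1 to that in empty vector 2 (log axis) for the 43 photoreceptor genes, ordered by the ratio and coloured by role, with 95% exact binomial intervals for counting error as bars and a line at 1. CRX, OTX2, NRL and RAX2 are among the 6 genes left of the line, and RCVRN, PCDH15 and IMPG1 lie farthest to the right at 239, 89.7 and 564.

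Splitting the genes by these ratios, 16 were above all libraries labelled TAF1C in both empty vector libraries with a ratio below 4. They held 50.1% of the 43 genes' counts in empty vector 1 and 90.6% in empty vector 2. The split used the ratio itself, so a larger share in empty vector 2 was largely set by it. The 9 genes not above all libraries labelled TAF1C in empty vector 2 were PRDM1, OPN1SW, CNGB3, CNGB1, SAG, GUCA1B, PCDH15, RDH12 and IMPG1, and all of these but PRDM1 and RDH12 were below all 3 there, as were 43.1% of tested genes. The 9 genes with TAATCC in the window had ratios from 0.584 (CRX) to 89.7 (PCDH15) with a median of 22.5, and the 21 other genes with a window had a median of 5.41. A ratio of at least 4 went the other way, in 5 of the 9 (55.6%) and 14 of the 21 (66.7%), so no difference is read from the medians.

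All 43 genes were low in the libraries labelled TAF1C. Their highest level of any of the 43 genes was 9.32 CPM (THRB), and the median over genes of their mean was 0.894 CPM. THRB, GNB3 and CDH23 had at least 5 CPM in each of the 3 libraries, and 14 genes had at least 1 CPM in each. Of the 43, 15 share their locus with another gene on GRCh38, among them OPN1SW with CALU, GNB3 with CDCA3, and NRL with DCAF11 and PCK2. How reads in such overlaps were assigned is not stated, so part of these genes' counts may belong to the neighbour.

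Genes of the same pathways outside the 43 were tested with edgeR's quasi-likelihood method, in which 38.5% of the 18402 tested genes passed at an adjusted p of 0.05, 22.6% lower and 15.9% higher in the libraries labelled TAF1C. The median log2 change of all tested genes was -0.10. The filter asks for 1 CPM in 2 libraries, so a gene that reached it only in both empty vector libraries had to differ, and one high in empty vector 1 alone was left out. Counts and medians over tested genes are therefore partly set by the filter. Each list is also given over the genes that reached 1 CPM in at least 2 libraries labelled TAF1C, except where every tested gene did. Of all genes of that kind, 2550 of 15650 fell and the median log2 change was 0.05. Of genes at that level in both empty vector libraries but in fewer than 2 labelled TAF1C, 1605 of 2194 fell. Of 20 other phototransduction genes, 11 were tested, 4 fell, 1 rose and 6 did not pass, with a median log2 change of -1.92. RD3 was tested through the empty vector libraries alone, and of 8 genes at 1 CPM in the libraries labelled TAF1C 3 fell, with a median of -0.83. RD3, a regulator of the retinal guanylate cyclase, stood at 149.9 and 77.8 CPM with the empty vector, against 0.428, 0.235 and 0.155 CPM, a log2 change of -8.67 ± 0.47 (SE, edgeR adjusted p = 0.000298). UNC119, a carrier of transducin, stood at 126 and 32.6 CPM, against 17.96, 15.7 and 16.1 CPM (-2.26 ± 0.52, edgeR adjusted p = 0.0204). GRK1, a kinase that helps shut off the light response, stood at 84.7 and 5.51 CPM, against 1.48, 1.44 and 1.82 CPM (-4.83 ± 1.05, edgeR adjusted p = 0.0172). KCNV2, a potassium channel subunit of photoreceptors, also passed, although its 1.95 CPM in empty vector 2 lay within the 1.65 to 2.08 CPM of the libraries labelled TAF1C. GNB1, the beta subunit of rod transducin that most tissues express, rose (0.68 ± 0.17, edgeR adjusted p = 0.0289). The number that fell was 1 when any 1 library labelled TAF1C was left out. Without an empty vector library that side holds 1 library, so the test takes its spread from the libraries labelled TAF1C alone. Counts and adjusted p given below without an empty vector library therefore do not check the spread between the empty vector libraries. None of the list rose with no filter, with the replicate number as a block (pairing libraries of the same number) or without any 1 library labelled TAF1C, so GNB1's call was lost there.

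The red and green cone opsins were too low for the test. OPN1LW, the red cone opsin, stood at 3.05 CPM in empty vector 1 and 0.142 CPM in empty vector 2, against 0, 0.235 and 0.124 CPM in libraries labelled TAF1C. OPN1MW, the green cone opsin, stood at 0.929 and 0.0711 CPM, against 0.114, 0.0588 and 0.0309 CPM. Both were highest in empty vector 1, and they are near-identical copies between which reads can be split. Over the 20 genes of this list the median empty vector 1 to 2 ratio was 14.4.

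Of 20 other genes of the outer segment and connecting cilium, 15 were tested, 11 fell and none rose, with a median log2 change of -1.84. Over the 14 that reached 1 CPM in the libraries labelled TAF1C, 10 fell and the median was -1.71. GPR98, the large adhesion receptor of the periciliary membrane, stood at 568 and 238 CPM, against 1.74, 1.62 and 2.16 CPM (-7.77 ± 0.45, edgeR adjusted p = 0.000355). RPGRIP1, which anchors the RPGR complex in the connecting cilium, stood at 196 and 44.6 CPM, against 1.51, 1.59 and 1.11 CPM (-6.41 ± 0.68, edgeR adjusted p = 0.00182). MAK, a kinase of that cilium, stood at 139 and 70.1 CPM, against 4.70, 5.03 and 3.83 CPM (-4.53 ± 0.33, edgeR adjusted p = 0.000587). All 3 were high in both empty vector libraries. MPP4 and CRB1 were not tested and stood at 91.8 and 77.7 CPM in empty vector 1 but 0.142 and 0.462 CPM in empty vector 2, and they were named after their values were seen.

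Genes of the ribbon synapse, at which photoreceptors release glutamate, had a median empty vector 1 to 2 ratio of 1.61 over 11 genes. Of 10 tested, 9 fell and none rose, with a median log2 change of -4.98. SLC17A7 and CPLX4 were tested through the empty vector libraries alone, and of the other 8 genes 7 fell, with a median of -4.37. CACNA1F, the calcium channel of the rod and cone terminal, stood at 220 and 73.1 CPM, against 2.34, 1.18 and 1.61 CPM (-6.42 ± 0.57, edgeR adjusted p = 0.00109). SYP, the vesicle protein synaptophysin, stood at 137 and 144 CPM, against 1.65, 2.71 and 2.44 CPM (-5.95 ± 0.23, edgeR adjusted p = 0.000147). RIMS2, a scaffold of the release site, stood at 148 and 92.0 CPM, against 1.57, 1.09 and 1.61 CPM (-6.40 ± 0.30, edgeR adjusted p = 0.000224). SYP and RIMS2 are also genes of synapses in general. CTBP2, whose locus also gives the ribbon protein RIBEYE, was the tested gene that did not pass, at 95.8 and 116 CPM against 91.1 to 94.0 CPM.

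Among 12 other photoreceptor transcription factors, 9 were tested, 5 fell and none rose, with a median log2 change of -1.52. RXRG was tested through the empty vector libraries alone, and of the other 8 genes 4 fell, with a median of -1.28. RXRG, the cone retinoid receptor, stood at 240 and 38.7 CPM, against 0.314, 0.206 and 0.773 CPM (-8.34 ± 0.995, edgeR adjusted p = 0.00261). RORA and RORB, orphan nuclear receptors of cone and rod differentiation, stood at 199 and 48.1 CPM against 1.91 to 2.15 CPM, and at 173 and 18.4 CPM against 5.28 to 5.91 CPM. Their log2 changes were -5.92 ± 0.63 and -4.10 ± 0.86 (edgeR adjusted p = 0.0018 and 0.015). RXRG, RORA and RORB were 6.19, 4.14 and 9.42 times as high in empty vector 1 as in empty vector 2, while CRX and OTX2 were lower there. SAMD11, named after its values were seen, went the other way at 12.7 and 155 CPM, with the libraries labelled TAF1C between them at 39.6 to 42.4 CPM.

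Retinal progenitor factors, which come before photoreceptor genes in development, were tested for 7 of 16 genes, of which 6 fell and none rose, with a median log2 change of -6.25. RAX, SIX3, LHX2 and ATOH7 were tested through the empty vector libraries alone. Of the other 3 genes 2 fell, with a median log2 change of -3.15. NEUROD4 and SIX6, high in empty vector 1 alone at 120 and 59.7 CPM against 0.213 CPM each in empty vector 2, were left out by the filter and are named after their values were seen. RAX, a homeodomain factor of the eye field, stood at 133 and 22.1 CPM, against 0.485, 0.294 and 0.371 CPM (-7.64 ± 0.88, edgeR adjusted p = 0.00234). ONECUT2, a cut homeodomain factor, stood at 70.6 and 91.1 CPM, against 1.51, 2.38 and 1.86 CPM (-5.40 ± 0.24, edgeR adjusted p = 0.000204). ATOH7, the factor for ganglion cell fate, stood at 11.9 and 28.1 CPM, against 0.342, 0.176 and 0.0618 CPM (-6.65 ± 0.70, edgeR adjusted p = 0.00174). ONECUT2 and ATOH7 were higher in empty vector 2, and RAX in empty vector 1. Without empty vector 1 the number that fell was 2, and without empty vector 2 it was 3.

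The visual cycle, which regenerates the retinal chromophore, had 7 of 12 genes tested, of which 3 fell, 2 rose and 2 did not pass. Of the 5 that reached 1 CPM in the libraries labelled TAF1C, 1 fell, with a median log2 change of -0.05 over these. Without empty vector 1, 1 gene fell. STRA6, a retinol transporter, stood at 57.2 and 40.8 CPM, against 3.62, 2.71 and 3.80 CPM (-3.86 ± 0.24, edgeR adjusted p = 0.000417). DHRS3, a retinal reductase found in many tissues, rose, with a log2 change of 1.97 ± 0.11 (edgeR adjusted p = 0.000284), with 25.7 CPM in each empty vector library against 102, 99.1 and 103 CPM. RDH11, another broadly expressed reductase, rose by 0.36 ± 0.11 (edgeR adjusted p = 0.0464), and 1 gene rather than 2 rose when any 1 library labelled TAF1C was left out. RPE65, the isomerase of the pigment epithelium, was at 0.780 CPM or less in every library.

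**Figure D4:**
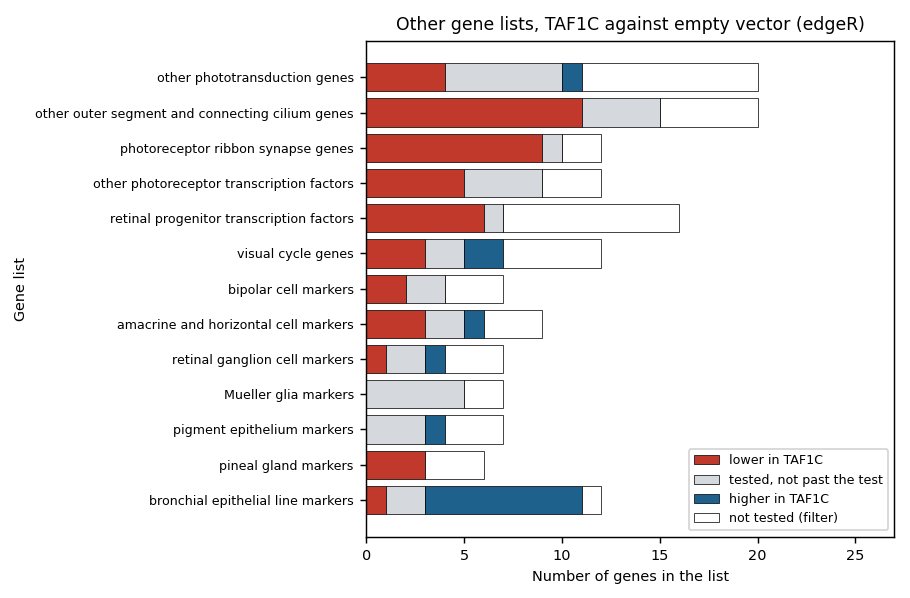
Number of genes of each list that were lower (red), higher (blue) or not past the test (grey) in the libraries labelled TAF1C (edgeR, adjusted p under 0.05), with genes that the filter left untested in white, some of them high in empty vector 1 alone. The ribbon synapse bar is red for 9 of 10 tested genes, whereas the bar of bronchial epithelial line markers is blue for 8 of 11.

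Markers of the other retinal cells moved in both directions. GRM6, GRIK1, PCP2, GAD1, PROX1, NEFL and the pineal marker TPH1 reached 1 CPM in both empty vector libraries. They did so in fewer than 2 libraries labelled TAF1C. No bipolar marker reached 1 CPM in 2 libraries labelled TAF1C, so nothing is read from the number of bipolar markers that fell. Of other markers that did, 1 of 3 amacrine and horizontal, 0 of 3 ganglion and 2 of 2 pineal markers fell. Their median log2 changes were 0.18, -0.41 and -3.47. For bipolar cells, 2 of 4 tested markers fell (GRM6 and GRIK1) and none rose, and the summed level of all 7 was 224.6 and 83.9 CPM with the empty vector and 4.3 to 6.1 CPM in the libraries labelled TAF1C. GRM6, the glutamate receptor of ON bipolar cells, stood at 167 and 79.7 CPM, against 0.882 to 1.43 CPM (-6.83 ± 0.42, edgeR adjusted p = 0.000405). The bipolar markers that fell numbered 4 without empty vector 2 and 1 without any other library. For amacrine and horizontal cells, 3 of 6 tested markers fell and 1 (TFAP2A) rose, with sums of 76.2 and 49.1 CPM against 26.6 to 31.3 CPM. For ganglion cells, NEFL fell and SNCG rose among 4 tested, with sums of 21.7 and 49.3 CPM against 15.6 to 18.7 CPM, and neither passed without any 1 library labelled TAF1C. TFAP2A's call was lost without the first or the third of those libraries.

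None of 5 tested Mueller glia markers passed, with sums of 312 and 422 CPM against 186 to 194 CPM, but 5 of the list fell without empty vector 2, and 1 fell and 3 rose without empty vector 1. Of the 4 tested pigment epithelium markers MITF rose and none fell, a call lost without any 1 library labelled TAF1C, and TYR, which encodes the enzyme that starts melanin synthesis, was at 0.285 CPM or less everywhere. The pineal gland shares CRX and OTX2 with the retina. Of its markers AANAT, TPH1 and LHX4 fell, all 3 that were tested, while ASMT, the last enzyme of melatonin synthesis, had 0 counts in all 5 libraries. The part of these cell types in the levels of the photoreceptor genes was not tested.

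Most markers of the bronchial line were lower with the empty vector. The summed level of the list was 686 and 746 CPM in empty vector 1 and 2, against 2378 to 2453 CPM. What this says of the cells' identity was not tested. Of 11 tested, 8 rose and 1 (ITGB4) fell in the libraries labelled TAF1C, with a median log2 change of 1.45. Leaving out 1 library gave 8 to 10 that rose and 0 to 3 that fell, with 0 without TAF1C replicate 1 or 2 and 3 without empty vector 2. KRT7, a keratin of simple epithelia, stood at 223 and 247 CPM with the empty vector, against 1052, 967 and 1062 CPM (2.13 ± 0.16, edgeR adjusted p = 0.000626). EGFR and CAV1 rose by 2.16 and 1.15 on the log2 scale. CDH1, the epithelial cadherin, was at 2.97 CPM or less in all 5 libraries, and KRT5, the basal cell keratin, at 1.30 CPM or less. KRT7, EGFR and CAV1 were at close levels in both empty vector libraries.

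The small RNA from the same samples was used for miRNAs known from photoreceptors. Mature sequences are from RefSeq (GRCh38.p14), with the seed (bases 2 to 8) in capitals. The miR-183, miR-96 and miR-182 genes lie in 1 cluster on chromosome 7 that is abundant in rods and cones and in sensory hair cells, and miR-9 is a miRNA of neural progenitors and neurons.
miR-183-5p, chr7:129774967-129774988, minus strand: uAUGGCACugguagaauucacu
miR-96-5p, chr7:129774739-129774761, minus strand: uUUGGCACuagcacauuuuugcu
miR-182-5p, chr7:129770447-129770470, minus strand: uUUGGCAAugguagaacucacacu
miR-9-5p, 3 loci: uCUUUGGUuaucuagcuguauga

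The 3 miRNAs of the cluster have related but different seeds, and none shares its seed with miR-9-5p. On the deposited scale, miR-183-5p had a signal of 3432 and 3613 with the empty vector and 2276, 2614 and 2811 in the libraries labelled TAF1C. miR-96-5p had 1033 and 975, against 682, 809 and 716. The groups did not overlap in either, and limma, in which 40.2% of 338 tested miRNAs passed and 19.2% were lower in the libraries labelled TAF1C, gave log2 changes of -0.46 ± 0.10 (SE, adjusted p = 0.00598) and -0.45 ± 0.11 (limma adjusted p = 0.00807). The call for miR-183-5p was lost without empty vector 2 (limma adjusted p = 0.0574) and that for miR-96-5p without empty vector 1 (limma adjusted p = 0.0913). miR-182-5p was listed at 6095 in empty vector 1 and at 0 in the other 4 libraries, and it was not tested, since a 0 in this table may be a failed estimate.

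miR-9-5p had 14872 and 16092 with the empty vector, against 342, 454 and 357, a log2 change of -5.34 ± 0.13 (limma adjusted p = 3.77e-09). The ratio of empty vector 1 to empty vector 2 was 0.95, 1.06 and 0.924 for miR-183-5p, miR-96-5p and miR-9-5p, beside 0.584, 0.712 and 1.14 for CRX, OTX2 and NEUROD1 and 26.0 for PRPH2. Over all tested miRNAs the empty vector pair differed by an SD of 0.27 on the log2 scale, within the 0.26 to 0.49 of the pairs of libraries labelled TAF1C. Tested miRNAs were above 0 in every library, so miR-182-5p and others with a 0 are not part of these SDs. miR-204-5p, a miRNA of the pigment epithelium, had 14.4 and 14.5, against 25.1, 27.7 and 22.9 (0.76 ± 0.26, limma adjusted p = 0.0453), a call that was lost without any 1 library (limma adjusted p = 0.0761 to 0.129). miR-124-5p, from a precursor abundant in neurons, had 73.5 and 87.7, against 106, 155 and 203 (0.89 ± 0.25, limma adjusted p = 0.0183), and its call was lost without empty vector 1 (limma adjusted p = 0.118) or without 1 library labelled TAF1C (limma adjusted p = 0.0555).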

How the data were processed

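Long RNA of 2 empty vector and 3 TAF1C libraries, and small RNA of the same design, were used; RNA came from the mirVana kit and long RNA libraries from NEBNext Ultra with ribosomal depletion, per the labels' protocols. The submitters' processing notes name hg19, HISAT2, Bowtie2 2.2.4, DESeq2, Trimmomatic 0.36 and Cufflinks 2.2.1, without roles; annotation, strand and the handling of reads shared by genes are not given in the sources used here. Raw counts per gene make up the long RNA tables as deposited. The deposited miRNA tables hold a signal that the authors had scaled per library, with arms as listed there, and 274 of 612 miRNAs have a 0 in some library.

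Symbols on more than 1 row (236) were summed. Counts were scaled by TMM and genes reaching 1 CPM in 2 or more libraries were tested with edgeR 4.0.16 (R 4.3.3, quasi-likelihood, two-sided, Benjamini-Hochberg over all tested genes at 0.05). miRNA signal was tested on log2(signal + 1) with limma 3.58.1, for miRNAs above 0 in all libraries and at least 10 in at least 2. Fits were also run on simulated data, and nothing about the calls given here is read from that run. Intervals of a ratio of 2 libraries are exact binomial at 95% and cover counting error. No transcript lengths were used, so sums, shares and orders over different genes also depend on their lengths. The members and lists were chosen with earlier results of these data known. Of each list the up to 3 called genes with the highest mean in the higher group were to be named, plus OPN1LW and OPN1MW, and members with at least 100 counts in an empty vector library were to be given library by library. One item that the rule covers is not reported here. The alternatives were DESeq2 1.42.0 and its size factors, library totals, no filter, a replicate block, a miRNA pseudocount of 10, a minimum of 100 counts for a ratio, and leaving out each library. Tables and plots used Python 3.11.15, pandas 2.3.3, scipy 1.17.1 and matplotlib 3.10.9.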

Additional observations from a re-analysis of the deposited data

How the results depend on the processing

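Under library totals and DESeq2 size factors, the same 34 of the 43 photoreceptor genes had both empty vector libraries above the libraries labelled TAF1C, and 28 and 24 rather than 25 were at least 4-fold higher in empty vector 1 than in empty vector 2. Leaving out 1 library gave 34 to 43, with 43 without empty vector 2. Among the 34 genes above the libraries labelled TAF1C in empty vector 2, a restriction chosen after seeing the data, 18 had a ratio of at least 4. Over all genes, 2922 were higher and 4158 lower in the libraries labelled TAF1C. With library totals these were 2269 and 5021, with no filter 1817 and 4304, and with DESeq2's own test 3678 and 4400. Leaving out 1 library gave 1058 to 5967 higher and 1960 to 5665 lower, with the smallest counts without a library labelled TAF1C and the largest without empty vector 2; the cause was not tested. With the replicate number as a block, 1425 genes were higher and 2662 lower. Same-numbered libraries had correlations of 0.031 and 0.13 over 2 pairs, which do not show that the numbers pair them. With no filter, 9 other phototransduction genes and 11 progenitor factors were lower, since more genes of low counts were tested. Leaving out 1 library gave 1 to 7 and 2 to 6 for these lists, 8 to 14 for outer segment and cilium genes, 7 to 8 for synapse genes, 4 to 6 for other transcription factors and 1 to 3 for the visual cycle. The miRNAs lower and higher numbered 65 and 71, and 41 to 88 and 52 to 90 without 1 library. Without a filter the calls for miR-124-5p and miR-204-5p were lost (limma adjusted p = 0.15 and 0.135), and that for miR-204-5p also with the replicate block (limma adjusted p = 0.0943). Ratios per transcript length were not run, since no transcript length was used. RDH12, IMPG1, PCDH15 and CNGB3 had few counts in empty vector 2 (14, 1, 4 and 8), which widens their ratio's interval.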
